A study of Homo sapiens with 25 samples.

Results

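The data described here are the RNA counts of 6 libraries from A549, a long-established line of human lung carcinoma cells, whose TRRAP protein carries an auxin-inducible degron (mAID). In 3 libraries the cells received DMSO, and in 3 they received 1 µM 5-Ph-IAA for 6 h, the compound that triggers degradation of a mAID-tagged protein. Cells of all 6 libraries spent 20 h in 2 mM thymidine, which stalls DNA replication, followed by a 4 h release into S phase. None received the CHK1 inhibitor prexasertib. The 6 libraries belong to 12 RNA libraries among 25 samples, and cells of the other 6 RNA libraries received prexasertib for 3 h. The 13 samples of the chromatin assay CUT&RUN were not analysed here. The members were chosen by title: the libraries titled DMSO and IAA, compared over all expressed genes with the replicate number as a block. The genotype label reads WT although the growth protocol names mAID TRRAP cells, and the labels do not say whether the line is 1 clone or when 5-Ph-IAA was added relative to the release. TRRAP protein was not measured in these files, and tag-free cells given 5-Ph-IAA were not analysed here, so an effect of the compound and an effect of losing TRRAP cannot be told apart.

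TRRAP is a very large member of the PIKK family of kinase-like proteins that has no kinase activity. It is a scaffold shared by SAGA and TIP60 (also called NuA4), both of which acetylate histones, while TIP60 also exchanges the histone variant H2A.Z. It is the surface through which activators such as MYC and E2F reach these complexes. In proliferating cells, genes of DNA replication are driven mainly by E2F factors, and genes of mitosis later in the cycle by B-MYB bound to the MuvB core (the MMB complex) and by FOXM1. Promoters of the mitotic genes often hold the CHR element, bound by MuvB, together with CCAAT boxes, bound by NF-Y.

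The 6 libraries held 11630058 to 17789482 counts, with 17312 to 18912 genes detected per library. The keratins KRT7, KRT8 and KRT18 lay between 1630 and 3670 CPM (counts of a gene scaled to the library's total). The keratin KRT19 lay between 1.73 and 6.96 CPM, and EPCAM between 0.436 and 1.45 CPM. Of the alveolar markers, NAPSA lay between 1.61 and 4.83 CPM and NKX2-1 at 0.172 CPM or less. The surfactant gene SFTPC was at 0.367 CPM or less, and SFTPB was at 0 in all 6. Of 16 markers of blood, stromal, endothelial and neuronal cells, 2 were at 0 in all 6 libraries and 9 were under 1 CPM. Their summed level was 118 to 135 CPM with DMSO and 118 to 146 CPM with 5-Ph-IAA, carried mostly by SNAP25, COL1A1 and CD68. Libraries numbered 3 stood apart: within a group, libraries 1 and 2 differed by a chi-square of 2.24 to 3.97 per degree of freedom, and any pair with library 3 by 13.1 to 19.7. Counts are therefore given also without replicate 3.

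With 5-Ph-IAA, 2780 of 14658 genes were called higher (19%) and 3465 lower (23.6%) by edgeR's quasi-likelihood test at an adjusted p under 0.05, so 6245 (42.6%) changed in either direction. In the lists of genes of mitosis, DNA replication, nucleotide synthesis, ribosome biogenesis, pre-mRNA splicing and protein folding most members fell, with list medians of -0.42 to -0.83 on the log2 scale. In 13 of 42 lists a larger share rose than among all genes, among them clock regulators (8 of 15), Mediator and TFIID subunits (14 of 44) and polyadenylated replication-dependent histones (7 of 17). Most changes were small. The median fold was 1.38 among genes called higher and 1.28 among genes called lower, and 36% of the called genes moved by less than 1.25-fold.

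Large changes were mostly upward when genes of all expression levels were counted. At a fold of at least 2, 456 genes were higher and 162 lower, and at a fold of at least 4, 67 were higher and 7 lower. Called genes of at least 3 log2 CPM with groups apart were also ranked, and the 10 largest changes per direction were taken. Their number was fixed at 10 each way, so they cannot show such an excess. In that ranking the drops ran from -2.27 (PIF1) to -1.54 (PIMREG) on the log2 scale. The rises began at 2.19 (FBXW10) and included DNHD1 at 1.28 and KIAA0513 at 1.26. The part of weak genes in the counts by fold was not tested. All 3 replicate pairs agreed in sign for 6095 called genes (97.6%), and the 3 libraries of one group lay wholly above those of the other for 2117 genes called higher and 2427 called lower. Without replicate 3, 2524 genes were called higher and 2910 lower. Without the replicate block the numbers were 1414 and 1787.

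The split between the directions rested on how the libraries were scaled. TMM, the scaling used here, sets the bulk of genes at no change, and the median log2 fold change of all genes was 0.01. The TMM factors themselves differed, from 0.942 to 0.978 with DMSO and from 1.036 to 1.095 with 5-Ph-IAA, a shift of 0.16 on the log2 scale. Scaled by library size alone, the median of all genes became 0.16, and 5078 genes were called higher and 1760 lower, so that 74.3% of the calls were upward rather than 44.5%. Changes below are relative to the median gene, and a list whose median lies between -0.16 and 0 is on the other side of 0 under library size. Counts without spike-in RNA do not show whether the total RNA per cell changed.

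The change depended on expression level. Among the 2932 most weakly expressed genes (a mean of -1.71 to 1.82 log2 CPM), 17.8% were called higher and 3.21% lower, with a median log2 fold change of 0.32. Among the 2932 most abundant genes (6.31 to 13.35 log2 CPM), 50.1% were lower and 10.1% higher, and the median was -0.14. Across all 14658 genes Spearman's rho between level and change was -0.37, a description over genes, which are not independent replicates. A separate fit, chosen after seeing the data, ranked genes by the 3 prexasertib libraries, which are in neither group, without the count filter on the compared groups. It covered 19198 genes, more of them weak, so its quintiles are not those above. The calls ran from 15.9% higher and 2.4% lower in the second quintile to 10.1% and 50.3% in the highest, and to 1.8% and 0.0999% in the lowest. Seen as a share of all counts, the genes called lower went from 57.6% ± 0.431 (SD, n = 3) to 50.8% ± 1.16, and the genes called higher from 8.44% ± 0.166 to 11.9% ± 0.472. Genes not called went from 33.9% ± 0.258 to 37.3% ± 0.681. The called sets were picked from these same libraries, so the direction of their shares follows from the choice and is not a separate result.

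**Figure D1:**
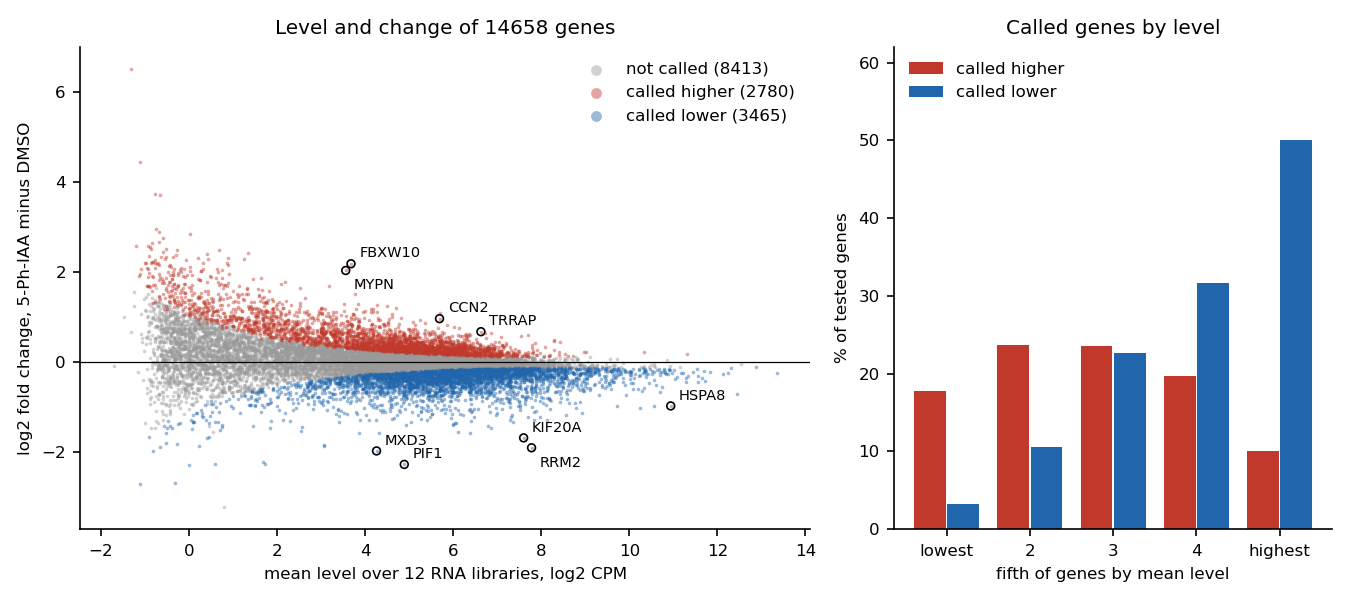
The left panel plots the log2 fold change of 5-Ph-IAA against DMSO (vertical axis) against the mean level over 12 RNA libraries in log2 CPM (horizontal axis), 1 point per gene, red for the 2780 called higher and blue for the 3465 called lower. The right panel gives the percent called in each quintile of level: blue bars grow from 3.21% at the lowest levels to 50.1% at the highest, and red bars shrink from 23.7% in the second quintile to 10.1%.

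TRRAP mRNA, transcribed from chr7:98878532-99013241 (GRCh38.p14, RefSeq), was higher. It lay at 79.2, 76.0 and 94.5 CPM with DMSO and 129, 149.5 and 119.5 CPM with 5-Ph-IAA, a log2 fold change of 0.68 ± 0.18 (SE) with adjusted p = 0.023. Here and below, CPM is on TMM-scaled library sizes in replicate order, and a value given alone for a gene is its log2 fold change, with SE after ±. The degron acts on the protein, so the mRNA does not check its loss. The 2 groups did not overlap, but the call was lost in 7 of 20 alternative analyses, among them those without replicate 1 and without either library numbered 1 or 2.

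Genes of the G2/M program had the largest share called lower of the 42 lists, 97.8%. Of 93 genes assigned to the MMB and FOXM1 program, 91 fell, none rose, and the median log2 fold change was -0.83, against 23.6% lower and a median of 0.01 over all genes. The 2 others were the cohesin protectors SGO1 and SGO2, at 0.00 and -0.22. The groups did not overlap for 85 of the genes. In bulk RNA, fewer cells at a stage of the cycle and less RNA per cell cannot be told apart, and cell cycle position was not measured in these files.

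KIF20A, a kinesin needed for cytokinesis, fell from 214, 211 and 221 CPM to 67.5, 65.0 and 68.6 CPM (log2 fold change -1.68 ± 0.05, adjusted p = 1.2e-29). PLK1, the kinase that drives mitotic entry and spindle assembly, lay at 323, 323 and 364 CPM with DMSO and 134, 133 and 150.1 CPM with 5-Ph-IAA (-1.28 ± 0.05, adjusted p = 3.9e-25). The 3 libraries of each group were close together and far from the other group in both genes. CCNB1, the cyclin that activates CDK1 at mitotic entry, lay at 511, 503 and 564 CPM with DMSO and 225, 226 and 273 CPM with 5-Ph-IAA (-1.13 ± 0.05). The largest drop by value among all genes of at least 3 log2 CPM was that of PIF1, a DNA helicase on the same list, at 39.6, 46.6 and 29.0 CPM with DMSO and 9.81, 8.89 and 4.93 CPM with 5-Ph-IAA (-2.27 ± 0.30, adjusted p = 0.00091). Other members of the list were CCNF, which encodes the F-box protein cyclin F, and PIMREG, a mitotic regulator, at -1.58 ± 0.07 and -1.54 ± 0.07.

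Similar counts were called when replicate 3 was left out (91 lower), without the block (82), under library size (90, median -0.67) and when a fold above 1.2 was required (82). On the same list AURKB, a kinase of the chromosomal passenger complex, was at -1.45, the centromeric histone CENPA at -1.37, the ubiquitin-conjugating enzyme UBE2C at -1.33, and the proliferation marker MKI67 at -1.17. The smallest called drop was that of the kinetochore scaffold KNL1, at -0.20.

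The promoters of KIF20A and PLK1, the 2 members with the smallest adjusted p among those with a window outside annotated genes, show which elements this list holds. Each is the 250 bases before the gene's start in RefSeq (GRCh38.p14, plus strand for both), at chr5:138178862-138179111 and chr16:23678639-23678888, written 5′ to 3′ with matches to 10 motifs in capitals.
KIF20A: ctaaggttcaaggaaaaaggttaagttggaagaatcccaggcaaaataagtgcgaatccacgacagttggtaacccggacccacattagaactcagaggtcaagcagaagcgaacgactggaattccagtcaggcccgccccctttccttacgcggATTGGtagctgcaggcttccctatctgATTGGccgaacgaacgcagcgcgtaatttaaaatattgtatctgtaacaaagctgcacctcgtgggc
PLK1: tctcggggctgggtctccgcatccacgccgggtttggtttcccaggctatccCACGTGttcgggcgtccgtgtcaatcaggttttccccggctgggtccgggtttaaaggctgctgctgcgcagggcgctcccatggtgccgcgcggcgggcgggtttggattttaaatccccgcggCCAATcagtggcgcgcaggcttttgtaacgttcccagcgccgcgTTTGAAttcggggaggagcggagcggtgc
KIF20A holds 2 CCAAT boxes in reverse orientation, 94 to 90 and 67 to 63 bases before the start, and no TTTGAA in this window. PLK1 holds a CCAAT box 73 to 69 bases and a TTTGAA 29 to 24 bases before the start, and further upstream a CACGTG. The motifs searched on both strands were TTTGAA for the CHR element, CCAAT for the box bound by NF-Y, CACGTG for the E-box bound by MYC, GGCGGGAA for E2F factors, GCATGCGC for NRF1, TGACGTCA for the cyclic AMP response element, CCGGAAG for ETS factors, GGAATG for TEAD factors, TGANTCA for AP-1 and TATAAA for the TATA box. None of them contains another, and CACGTG and TGACGTCA read the same on both strands.

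TTTGAA stood in 48.7% of the 78 promoters of the G2/M list and in 8.27% of the 11547 promoters of tested genes in the table. CCAAT stood in 67.9% and 34.7%. Taken alone, the motif separated few genes: the 955 genes with TTTGAA had a median log2 fold change of 0.00, as had those without it, and 26.5% against 24.2% were called lower. For the 382 genes with both TTTGAA and CCAAT the median was -0.09 and 35.6% were lower, against 24% of the rest. Genes called lower by at least 1.5-fold held TTTGAA in 15.6% of 552 promoters, and all genes called lower in 8.97% of 2819. A match is a description of letters and not of binding.

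The factors that act on these promoters changed less than the genes. FOXM1 lay at 229.5, 239.8 and 272 CPM with DMSO and 182, 178 and 192 CPM with 5-Ph-IAA (-0.42 ± 0.05, adjusted p = 3.5e-09). MYBL2, which encodes B-MYB, lay at 141, 146 and 192 CPM with DMSO and 114, 106 and 140.2 CPM with 5-Ph-IAA (-0.41 ± 0.06), and its call was lost without the block (adjusted p = 0.092). LIN9, a MuvB core subunit, lay at 13.6, 15.1 and 14.4 CPM with DMSO and 13.6, 14.2 and 16.1 CPM with 5-Ph-IAA, with overlapping groups and no call (adjusted p = 0.92). The MuvB subunits LIN37, LIN52 and LIN54 were at 0.10, 0.01 and -0.03, none called, and RBBP4 was called at -0.41.

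Of the 21 MuvB, MYB, pocket protein and E2F factors, 11 fell and 1 rose, with a median of -0.24. The repressor E2F8 fell most, from 12.1, 12.4 and 13.5 CPM to 4.38, 5.50 and 3.94 CPM (-1.44 ± 0.16, adjusted p = 3.8e-10), followed by E2F2 at -0.82 and the second atypical repressor E2F7 at -0.66 ± 0.08. E2F1 was at -0.45 ± 0.10, not called without the block (adjusted p = 0.052). RBL2, the pocket protein p130, was the 1 higher, at 0.18 ± 0.06, and this call was lost in 9 of 20 alternatives.

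Among 72 genes of the G1/S program, 53 fell and 3 rose, with a median of -0.42 (-0.39 and 47 lower without replicate 3). RRM2, the regulated subunit of ribonucleotide reductase, lay at 447, 418 and 522 CPM with DMSO and 114, 110.0 and 150.3 CPM with 5-Ph-IAA (-1.90 ± 0.05, adjusted p = 6.2e-32). MCM7, part of the replicative helicase, lay at 251, 264 and 315 CPM with DMSO and 143, 138 and 176 CPM with 5-Ph-IAA (-0.86 ± 0.05, adjusted p = 2.1e-18). Neither gene's groups overlapped. The loading factors CDT1 and CDC6 were at -0.91 and -0.85, and the helicase subunits MCM2 to MCM6 between -1.05 and -0.45. Thymidine kinase TK1 and the sliding clamp PCNA, whose transcripts also belong to this program, were at -0.38 and -0.34.

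The 3 higher were the recombination gene BRCA2 (15.2, 17.8 and 17.4 CPM with DMSO and 23.2, 21.2 and 20.5 CPM with 5-Ph-IAA, 0.37 ± 0.12, adjusted p = 0.009), the kinase CDC7 and the replication factor GINS3. None of these 3 was called without the block. Uncalled members included the deoxyuridine hydrolase DUT (-0.16), the polymerase subunit POLA1 (-0.09) and the DNA methyltransferase DNMT1 (-0.03), and their values lay within 0.16 of 0.

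The windows of RRM2 and MCM7 overlap annotated transcripts and are not shown. CDCA7 and CDC6, the next called members by adjusted p with a window outside any annotated gene, were taken in their place after their values were seen. Both lie on the plus strand, at chr2:173354622-173354871 and chr17:40287629-40287878 (GRCh38.p14, RefSeq).
CDCA7: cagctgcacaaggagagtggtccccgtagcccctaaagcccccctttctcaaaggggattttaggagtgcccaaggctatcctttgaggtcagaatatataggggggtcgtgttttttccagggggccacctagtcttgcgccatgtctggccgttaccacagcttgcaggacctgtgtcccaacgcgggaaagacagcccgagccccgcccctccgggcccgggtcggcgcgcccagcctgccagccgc
CDC6: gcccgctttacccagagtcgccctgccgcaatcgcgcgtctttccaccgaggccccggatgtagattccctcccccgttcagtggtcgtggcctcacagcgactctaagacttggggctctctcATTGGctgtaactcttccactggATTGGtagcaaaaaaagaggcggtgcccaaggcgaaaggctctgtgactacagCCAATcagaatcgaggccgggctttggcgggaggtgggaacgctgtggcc
CDC6, which loads the replicative helicase at origins, has 3 CCAAT boxes, the nearest 50 to 46 bases before the start. CDCA7, a zinc finger protein of chromatin remodelling, has no exact match to any of the 10 motifs in this window. Other spellings of these sites, such as those of E2F factors, were not searched. CDCA7 lay at 53.1, 60.4 and 59.0 CPM with DMSO and 21.2, 24.8 and 23.0 CPM with 5-Ph-IAA (-1.32 ± 0.09) and CDC6 at 104, 93.5 and 121 CPM with DMSO and 56.8, 53.9 and 66.6 CPM with 5-Ph-IAA (-0.85 ± 0.07). In the 59 promoters of the G1/S list GGCGGGAA stood in 18.6% against 4.4% of all, CCAAT in 52.5%, and TTTGAA in 3.39%.

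Most genes of nucleotide supply fell. Of 31 genes of purine and pyrimidine synthesis, 28 fell and 0 rose, with a median of -0.46. DCTPP1, which clears modified deoxycytidine triphosphates, lay at 81.5, 81.6 and 108 CPM with DMSO and 37.6, 36.3 and 57.9 CPM with 5-Ph-IAA (-1.06 ± 0.07, adjusted p = 2.1e-17). CAD, the enzyme that opens pyrimidine synthesis, lay at 160.2, 181 and 182 CPM with DMSO and 98.7, 94.6 and 102 CPM with 5-Ph-IAA (-0.82 ± 0.06, adjusted p = 1.9e-16). The groups did not overlap in either gene. The purine enzymes GART, PPAT and PAICS were at -0.66, -0.59 and -0.54, and the folate enzyme MTHFD2 at -0.59. CACGTG stood in 25.9% of the 27 promoters of this list, against 8.7% of all.

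**Figure D2:**
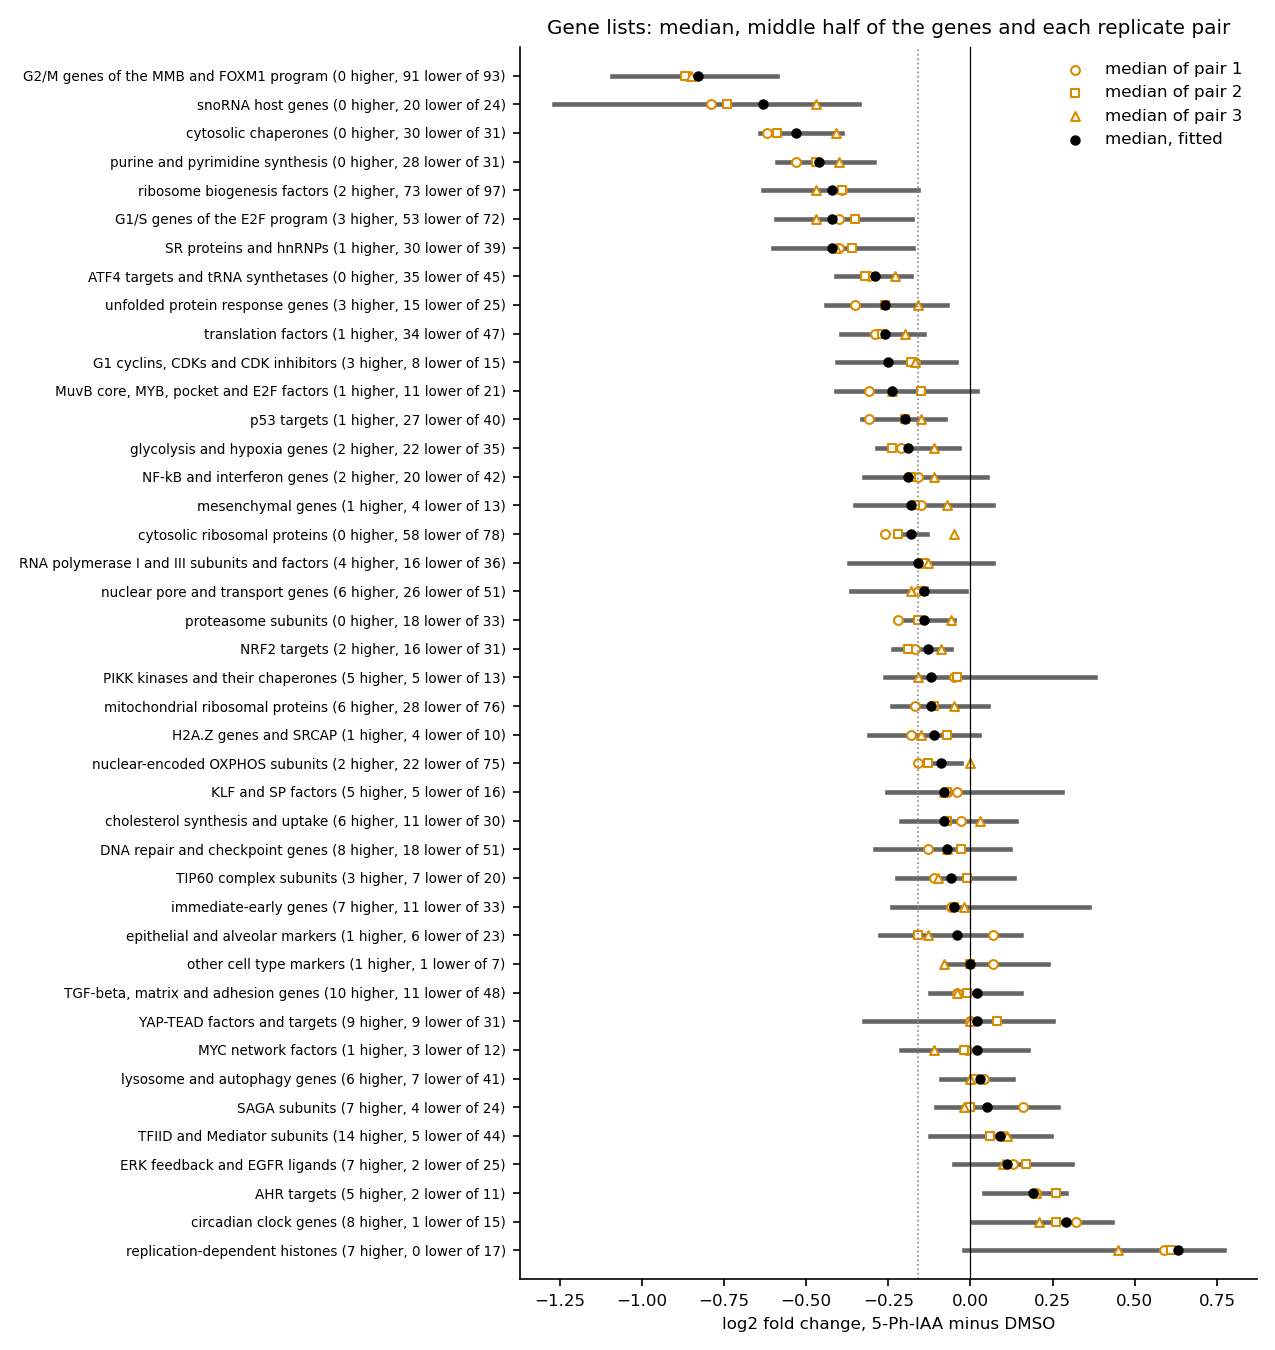
Each row is 1 of 42 gene lists, with its number of genes called higher and lower of those tested. The horizontal axis is the log2 fold change of 5-Ph-IAA against DMSO: the black point is the median, the bar spans the middle 50% of the genes, and the open symbols are the medians of replicate pairs 1, 2 and 3. The dotted line at -0.16 is where 0 lies under scaling by library size. Lists run from G2/M genes at -0.83 to replication-dependent histones at 0.63, and in cytosolic ribosomal proteins pair 3 (-0.05) lies apart from pairs 1 and 2 (-0.26 and -0.22).

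Ribosome biogenesis factors fell as well, 73 of 97, with 2 higher and a median of -0.42 (64 lower and -0.40 without replicate 3). These proteins process and modify ribosomal RNA in the nucleolus. DKC1, the pseudouridine synthase of H/ACA particles, lay at 177, 167 and 207 CPM with DMSO and 77.5, 78.5 and 87.2 CPM with 5-Ph-IAA (-1.18 ± 0.06, adjusted p = 2.8e-22). RRS1, an assembly factor of the large subunit, lay at 82.4, 86.6 and 110.0 CPM with DMSO and 36.6, 36.8 and 45.4 CPM with 5-Ph-IAA (-1.23 ± 0.07, adjusted p = 1e-19). The groups were far apart in both. RPF1, another large subunit factor, went the other way at 0.27 ± 0.09, a call lost in 6 of 20 alternatives.

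The promoter windows of DKC1 and of DDX21, a nucleolar helicase and the next called member by adjusted p with a printable window (added after values were seen; 326, 306 and 376 CPM with DMSO and 179, 175 and 186 CPM with 5-Ph-IAA, -0.90 ± 0.05), lie at chrX:154762614-154762863 and chr10:68955920-68956169, both on the plus strand (GRCh38.p14, RefSeq).
DKC1: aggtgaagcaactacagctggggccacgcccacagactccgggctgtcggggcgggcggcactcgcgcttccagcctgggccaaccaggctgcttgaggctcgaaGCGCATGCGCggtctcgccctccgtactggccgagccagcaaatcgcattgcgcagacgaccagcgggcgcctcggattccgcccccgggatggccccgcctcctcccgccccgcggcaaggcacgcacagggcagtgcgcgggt
DDX21: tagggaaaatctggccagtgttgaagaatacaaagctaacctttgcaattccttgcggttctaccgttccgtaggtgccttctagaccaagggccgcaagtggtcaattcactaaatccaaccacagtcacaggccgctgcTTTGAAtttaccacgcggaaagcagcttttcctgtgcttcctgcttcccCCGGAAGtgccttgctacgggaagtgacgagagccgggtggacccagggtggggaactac
DKC1 holds 2 overlapping matches of the NRF1 motif, 145 to 136 bases before the start, and DDX21 holds CCGGAAG 60 to 54 bases and TTTGAA 109 to 104 bases before it. In the 80 promoters of the list CCGGAAG stood in 33.8% against 15.2% of all, and CACGTG in 16.2% against 8.7%. Neither DKC1 nor DDX21 has CACGTG in this window.

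The machinery that makes ribosomal RNA changed in part. Of 36 RNA polymerase I and III subunits and factors, 16 fell and 4 rose, with a median of -0.16 (10 lower and 11 higher under library size). UBTF, which binds ribosomal DNA and opens it for polymerase I, lay at 167, 163 and 167 CPM with DMSO and 92.3, 82.4 and 79.2 CPM with 5-Ph-IAA (-0.97 ± 0.06, adjusted p = 1.8e-18), and the polymerase I subunit POLR1G lay at 60.0, 59.3 and 69.0 CPM with DMSO and 34.4, 31.0 and 29.2 CPM with 5-Ph-IAA (-0.99 ± 0.08). Both fell in every pair. TAF1C, a subunit of the selectivity factor SL1, was higher at 0.35 ± 0.08 but with overlapping groups, and was not called without the block (adjusted p = 0.18).

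Host genes of small nucleolar RNAs fell the most after the mitotic list. These genes carry snoRNAs in their introns, and many encode no protein. Of 24 tested, 20 fell and 0 rose, with a median of -0.63 (-0.75 without replicate 3, with 19 lower). SNHG7 lay at 40.7, 45.8 and 47.1 CPM with DMSO and 16.2, 16.1 and 18.2 CPM with 5-Ph-IAA (-1.40 ± 0.09, adjusted p = 5.7e-18). SNHG3 lay at 24.4, 27.2 and 32.5 CPM with DMSO and 7.80, 9.04 and 11.6 CPM with 5-Ph-IAA (-1.57 ± 0.11, adjusted p = 1.3e-16), and SNHG15 at 13.3, 15.7 and 16.1 CPM with DMSO and 4.16, 5.09 and 3.11 CPM with 5-Ph-IAA (-1.85 ± 0.16). GAS5 was at -0.65 and ZFAS1 at -0.41, both called. The 31 tested rows annotated as snoRNAs had a median of -1.09, with 14 lower and 0 higher. In poly(A)-selected libraries such reads can stem from the host transcript, and the strand setting of the counting is not given in the sources used here.

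Translation factors fell in 34 of 47 cases, with 1 higher and a median of -0.26. Without the block 20 were lower, under library size 21, and at a required fold above 1.2, 12. Of the 47, 38 were in the top quintile of expression and 29 of these were lower, against 50.1% of all genes there. EIF3A, the largest core subunit of the factor that holds the small ribosomal subunit, lay at 455, 419 and 424 CPM with DMSO and 286, 281 and 269 CPM with 5-Ph-IAA (-0.63 ± 0.05, adjusted p = 1.4e-14), and ABCE1, which recycles ribosomes, lay at 122, 122 and 132 CPM with DMSO and 71.0, 75.3 and 79.0 CPM with 5-Ph-IAA (-0.74 ± 0.06). EIF4EBP2, a repressor of cap-dependent translation, was the 1 higher, at 110.0, 108 and 110.4 CPM with DMSO and 152, 144 and 151 CPM with 5-Ph-IAA (0.44 ± 0.06, adjusted p = 5e-09). Its groups did not overlap.

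Ribosomal protein mRNAs showed a small shift whose calls varied with the analysis. Of 78 cytosolic ribosomal proteins, 58 were called lower with a median of -0.18, but the groups were apart for 2. Without the block 1 was called, under library size 4 (median -0.02), without replicate 1 or 2, 22 or 31, and without replicate 3, 59 (median -0.22). RPL13A, the member with the smallest adjusted p, lay at 2250.0, 2141 and 2584 CPM with DMSO and 1704, 1673 and 2253 CPM with 5-Ph-IAA (-0.32 ± 0.05), where the IAA library numbered 3 was above the DMSO libraries numbered 1 and 2. Of these 78 genes, 75 were in the top quintile of expression, where 50.1% of all genes were lower. These genes have many processed pseudogenes, to which counting may lose reads.

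Calls of other abundant housekeeping sets varied with the analysis too. Of 75 nuclear-encoded OXPHOS subunits 22 were lower (29.3%, against 23.6% of all genes) and 2 higher, with a median of -0.09. In the top quintile of expression were 49 of them, of which 17 were lower, against 50.1% of all genes there. Without the block 1 was lower, and without replicate 1, 9. Under library size 2 were lower and 13 higher, with a median of 0.07. Of 33 proteasome subunits 18 were lower (54.5%; median -0.14, and 0.02 under library size; 1 lower without the block). Of the 33, 32 were in the top quintile, where 50.1% of all genes were lower. Of 76 mitochondrial ribosomal proteins 28 were lower (36.8%) and 6 higher, with a median of -0.12. Without the block 9 were lower, and under library size 12 were lower and 20 higher. MRPL18 was among the clearer ones, at 113, 106 and 106 CPM with DMSO and 66.9, 64.8 and 73.4 CPM with 5-Ph-IAA (-0.67 ± 0.06, adjusted p = 7.5e-13). Glycolysis and hypoxia genes had 22 of 35 lower (median -0.19), against 4 without the block and 6 under library size, where 6 were higher.

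MYC is an activator known to recruit TRRAP. MYC mRNA lay at 77.1, 88.4 and 97.0 CPM with DMSO and 112, 100.4 and 124 CPM with 5-Ph-IAA (0.36 ± 0.08, adjusted p = 0.00043), higher in every pair. Of 12 tested genes of its network, 1 rose and 3 fell (4 and 1 under library size). MXD3, which pairs with MAX and represses the sites that MYC activates, fell from 31.0, 33.6 and 31.7 CPM to 8.47, 8.22 and 7.89 CPM (-1.97 ± 0.14, adjusted p = 1.1e-11), and its groups were far apart. MXD4 was at -0.25 ± 0.08, a call lost in 6 of 20 alternatives, and MAX, MNT and MXD1 were not called. TFAP4, a helix-loop-helix factor known as a MYC target, lay at 17.3, 18.9 and 20.1 CPM with DMSO and 5.20, 5.29 and 5.31 CPM with 5-Ph-IAA (-1.83 ± 0.15, adjusted p = 9.4e-15). Over all genes, CACGTG stood in 10.9% of 2819 promoters of genes called lower and in 6.72% of 2204 promoters of genes called higher. The median log2 fold change was -0.04 with and 0.01 without it.

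Pre-mRNA splicing regulators fell: of 39 SR proteins, hnRNPs and their kinases 30 were lower and 1 higher, with a median of -0.42. SRSF2, which binds exonic enhancers, lay at 374, 383 and 360.5 CPM with DMSO and 166, 165 and 151 CPM with 5-Ph-IAA (-1.22 ± 0.05, adjusted p = 2.2e-24). SRSF1, the prototype of the family, lay at 426, 433 and 334 CPM with DMSO and 229, 218 and 167 CPM with 5-Ph-IAA (-0.96 ± 0.05). In both, each DMSO library lay above all 5-Ph-IAA libraries. SRPK2, a kinase of SR proteins, was the 1 higher, at 60.7, 57.9 and 58.8 CPM with DMSO and 75.8, 74.1 and 68.6 CPM with 5-Ph-IAA (0.30 ± 0.07). Nuclear transport genes were mixed, with 26 of 51 lower (51%, against 23.6% of all genes) and 6 higher (11.8%, against 19%). Without the block 18 were lower and 1 higher, and under library size 17 and 12. Of the 51, 36 were in the top quintile of expression and 21 of these were lower, against 50.1% of all genes there. XPO1, the main export receptor, was at -0.88 ± 0.05, RANGAP1, which drives the RAN cycle, at -0.77 ± 0.05, and the import receptor IPO8 at 0.29 ± 0.07.

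Chaperones of the cytosol and mitochondria fell in 30 of 31 cases, with 0 higher and a median of -0.53 (30 lower and -0.60 without replicate 3). HSPA8, the constitutive HSP70, lay at 2769, 2843 and 2188 CPM with DMSO and 1429, 1455 and 1101 CPM with 5-Ph-IAA (-0.97 ± 0.05, adjusted p = 2.8e-22). HSP90AB1 lay at 2060.0, 1970.0 and 1734 CPM with DMSO and 1215, 1204 and 1236 CPM with 5-Ph-IAA (-0.65 ± 0.05, adjusted p = 1.3e-15). The libraries numbered 3 were lower than the others in HSPA8, and still fell by 0.99 on the log2 scale between the groups. The chaperonin subunits TCP1 and CCT3 were at -0.53 and -0.51, the heat shock factor HSF1 at -0.44, and DNAJB4 was the 1 not called. Of the 31, 29 were in the top quintile of expression and all 29 were lower, against 50.1% of genes at that level. HSP70 and HSP90 genes have close copies between which the counting may split reads.

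Amino acid and endoplasmic reticulum stress genes were lower too. Of 45 targets of ATF4 and tRNA synthetases, 35 fell and 0 rose, with a median of -0.29. Without the block 22 were lower, under library size 22 with 5 higher, and at a required fold above 1.2, 15. Of the 45, 33 were in the top quintile of expression and 26 of these were lower, against 50.1% of all genes there. DDIT4, an inhibitor of mTORC1 signalling, lay at 177, 189.5 and 156 CPM with DMSO and 97.0, 99.8 and 90.8 CPM with 5-Ph-IAA (-0.86 ± 0.06, adjusted p = 4.4e-17), and XPOT, which exports tRNA, lay at 130.4, 139 and 139 CPM with DMSO and 78.7, 81.7 and 76.6 CPM with 5-Ph-IAA (-0.78 ± 0.06). ATF4 itself was at -0.67 and DDIT3 (CHOP) at -0.70. The amino acid genes ASNS, SLC7A11 and CHAC1, at 0.10, 0.12 and 0.10, were not called. Of 25 genes of the unfolded protein response, 15 fell and 3 rose. XBP1, its spliced transcription factor, lay at 77.6, 76.7 and 66.4 CPM with DMSO and 35.1, 33.8 and 30.1 CPM with 5-Ph-IAA (-1.15 ± 0.08, adjusted p = 2.4e-17), and the lumenal chaperone HSPA5 was at -0.58 ± 0.05. The sensor ATF6 was higher at 0.36 ± 0.07.

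The complexes that TRRAP belongs to did not move in 1 direction at the level of mRNA. Of 24 SAGA subunits, 7 rose and 4 fell (10 and 2 under library size). TAF6L lay at 14.7, 14.3 and 16.3 CPM with DMSO and 20.2, 19.8 and 27.8 CPM with 5-Ph-IAA (0.57 ± 0.11, adjusted p = 2.8e-05) and SUPT7L at 0.28 ± 0.06, both core subunits, while SF3B3, which SAGA shares with the spliceosome, was at -0.48 ± 0.05. The acetyltransferase KAT2A was at -0.24 and its paralog KAT2B at 0.32. TRRAP is counted among the 7. Of 20 TIP60 subunits, 3 rose (TRRAP included) and 7 fell, while under library size 7 were higher and 5 lower. MORF4L2, an MRG domain subunit, lay at 424, 392.5 and 445 CPM with DMSO and 231, 224 and 273 CPM with 5-Ph-IAA (-0.80 ± 0.05, adjusted p = 1.8e-17), the bromodomain subunit BRD8 was at -0.52 ± 0.06, and DMAP1 was higher at 0.53 ± 0.09. MORF4L2 has a close paralog, MORF4L1, at -0.37.

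Of 10 genes around H2A.Z, 4 were lower (40%, against 23.6% of all genes) and 1, DMAP1, was higher (10%, against 19%). Under library size 3 were lower and 2 higher. ANP32E, the chaperone that removes H2A.Z from chromatin, lay at 117, 102 and 106 CPM with DMSO and 53.6, 48.6 and 53.02 CPM with 5-Ph-IAA (-1.07 ± 0.07, adjusted p = 7.7e-19). H2AZ1 lay at 455, 418 and 500.1 CPM with DMSO and 255, 269.6 and 380.1 CPM with 5-Ph-IAA (-0.62 ± 0.06, adjusted p = 1.6e-11). Of 44 subunits of TFIID and Mediator, which carry activator signals to RNA polymerase II, 14 rose (31.8%, against 19% of all genes) and 5 fell. MED13 was at 0.38 ± 0.06 and MED23 at 0.46 ± 0.09, while MED22 fell from 35.7, 34.1 and 45.3 CPM to 17.8, 17.4 and 23.0 CPM (-0.99 ± 0.09, adjusted p = 3.2e-12). Under library size 23 of the 44 were called higher.

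The PIKK family and its assembly factors were split, with 5 of 13 higher (TRRAP included) and 5 lower (5 and 2 without the block or under library size). ATR, the kinase that activates CHK1, lay at 48.5, 45.1 and 40.2 CPM with DMSO and 34.1, 35.4 and 31.6 CPM with 5-Ph-IAA (-0.41 ± 0.09, adjusted p = 0.00013), and MTOR was at 0.32. ATM and PRKDC were not called, at -0.05 and -0.26. Of the factors that fold these kinases, TTI1, TTI2 and RPAP3 were higher (0.38, 0.48 and 0.44 ± 0.07), and TELO2, RUVBL1 and RUVBL2 lower (-0.25, -0.33 ± 0.06 and -0.21).

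Among 51 DNA repair and checkpoint genes, 18 fell and 8 rose, with a median of -0.07, while under library size 9 were lower and 17 higher. H2AX, the histone variant phosphorylated at breaks, lay at 214, 217 and 245 CPM with DMSO and 91.8, 86.1 and 99.7 CPM with 5-Ph-IAA (-1.28 ± 0.06, adjusted p = 7e-24), and the Fanconi gene FANCG lay at 77.3, 74.5 and 89.4 CPM with DMSO and 49.5, 49.9 and 60.2 CPM with 5-Ph-IAA (-0.60 ± 0.07). LIG4, the ligase of end joining, went the other way and lay at 19.1, 16.9 and 16.7 CPM with DMSO and 30.2, 31.4 and 25.3 CPM with 5-Ph-IAA (0.71 ± 0.11, adjusted p = 1.6e-06). CHEK1, which encodes CHK1, was at -0.32 ± 0.09, a call lost without replicate 3 and under library size. Of 40 p53 targets 27 were lower (67.5%, against 23.6% of all genes) and 1 higher, with a median of -0.20. Without the block 10 were lower, and under library size 14. Of the 40, 27 were in the top quintile of expression and 20 of these were lower, against 50.1% of all genes there. BTG2, an antiproliferative gene, lay at 163, 169.8 and 129 CPM with DMSO and 98.7, 102 and 80.9 CPM with 5-Ph-IAA (-0.71 ± 0.06) and PHLDA3, an inhibitor of AKT, at 243, 239 and 239.7 CPM with DMSO and 161, 152 and 179 CPM with 5-Ph-IAA (-0.56 ± 0.05). CDKN1A, the CDK inhibitor p21, was at -0.16 ± 0.05, with overlapping groups and a call lost in 5 of 20 alternatives.

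Of 15 cyclins, CDKs and CDK inhibitors of G1, 8 were lower and 3 higher. Without the block 4 were lower and 2 higher, and under library size 4 and 3. CDK4 lay at 132, 136 and 178 CPM with DMSO and 84.3, 83.8 and 118 CPM with 5-Ph-IAA (-0.64 ± 0.06), cyclin D1 (CCND1) at -0.45 ± 0.05, and the CDK inhibitor CDKN1B at -0.73. MNAT1, the assembly factor of the CDK-activating kinase, was higher at 0.38 ± 0.09.

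**Figure D3:**
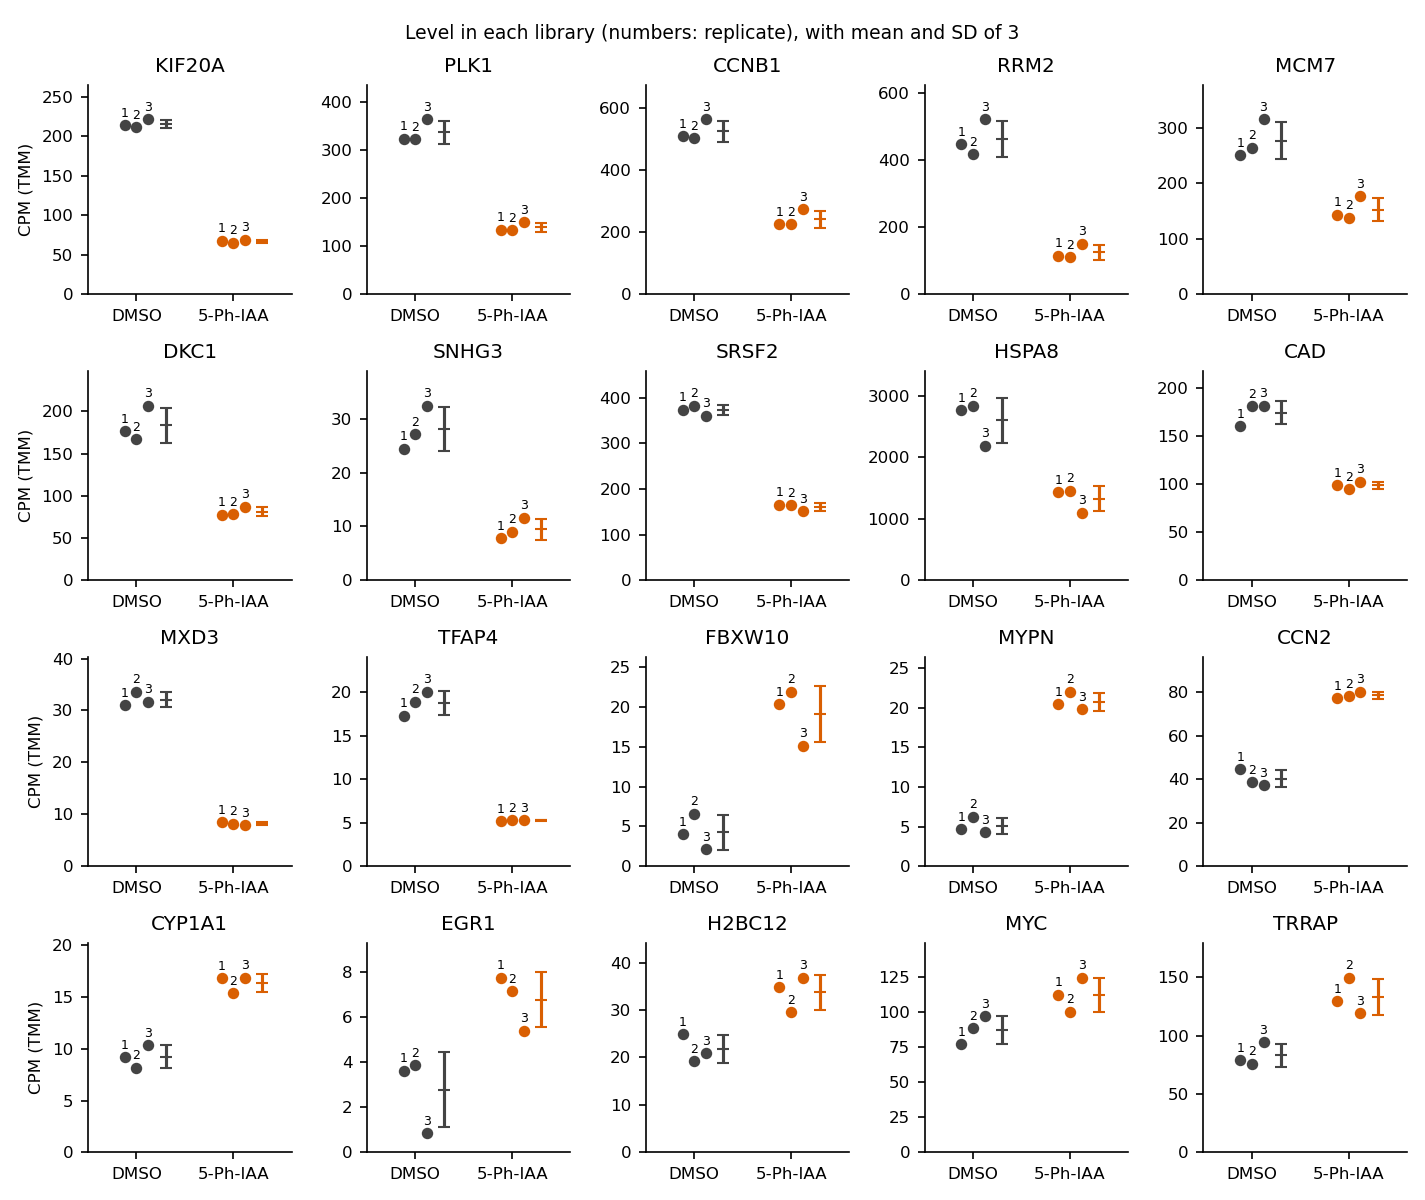
Levels of 20 genes in CPM (vertical axis from 0, TMM-scaled) in each of the 6 libraries, numbered by replicate, with the mean and SD of 3 beside the points, for DMSO (grey) and 5-Ph-IAA (orange). The 3 libraries of KIF20A, SRSF2, MXD3 and TFAP4 lie close together within a group, and EGR1 shows the lowest DMSO library, numbered 3, at 0.856 CPM.

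Signalling and stress lists held changes in both directions, as did all genes (19% higher and 23.6% lower). Of 33 immediate-early genes, which respond within minutes to growth signals, 7 rose (21.2%) and 11 fell (33.3%), with a median of -0.05. Without the block 4 were higher and 5 lower, and under library size 13 and 6. EGR1 lay at 3.62, 3.87 and 0.856 CPM with DMSO and 7.73, 7.14 and 5.38 CPM with 5-Ph-IAA (1.30 ± 0.24, adjusted p = 0.00012), and was not called without the block (adjusted p = 0.075). KLF2, a zinc finger factor, lay at 8.59, 8.27 and 14.9 CPM with DMSO and 21.3, 17.8 and 27.1 CPM with 5-Ph-IAA (1.07 ± 0.12, adjusted p = 8.4e-10). In both, each 5-Ph-IAA library was above all DMSO libraries. IER5L fell from 125, 124 and 116 CPM to 60.5, 57.7 and 52.2 CPM (-1.10 ± 0.06), and the AP-1 gene FOSL2 was lower at -0.57 ± 0.05. FOS was uncalled at 0.46 and JUN was at -0.39.

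Of 42 NF-kB and interferon genes 20 were lower and 2 higher, and without the block 9 were lower. Under library size 9 were lower and 8 higher. CXCL8, the chemokine interleukin-8, was 1 of the 2 higher, at 8.29, 5.98 and 5.84 CPM with DMSO and 17.6, 13.7 and 13.1 CPM with 5-Ph-IAA (1.13 ± 0.16, adjusted p = 1.6e-07), and the other was IRF7. The inhibitor NFKBIA was at -0.46 ± 0.08, with overlapping groups and no call without the block (adjusted p = 0.083), and the peptide transporter TAP1 at -0.44 ± 0.07. Of 31 targets of NRF2, whose inhibitor KEAP1 is known to be defective in A549, 16 were lower and 2 higher (5 lower without the block, and 5 lower and 8 higher under library size). Of the 31, 30 were in the top quintile of expression, where 50.1% of all genes were lower. AKR1C3 was at -0.50 ± 0.05 and AKR1C2 at -0.44 ± 0.05, 2 near-identical aldo-keto reductases whose reads may be shared. Of 30 genes of cholesterol synthesis and uptake 11 were lower (36.7%) and 6 higher (20%, against 19% of all genes). Without the block 4 were lower and 2 higher, and under library size 3 and 12. FASN, which makes fatty acids, was at -0.67 ± 0.08, SQLE at -0.37 ± 0.06, and the sterol desaturase SC5D at 0.62 ± 0.10.

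Of 11 genes of the aryl hydrocarbon receptor list, 5 were higher and 2 lower, and without the block 2 and 0. CYP1A1, its classical target, lay at 9.196, 8.18 and 10.3 CPM with DMSO and 16.8, 15.4 and 16.8 CPM with 5-Ph-IAA (0.83 ± 0.14, adjusted p = 3.9e-06). The groups were apart, and the receptor AHR itself was at 0.31. CYP1B1 and AHRR, further targets, were not called (-0.04 and 0.12), and NQO1 was at -0.22 ± 0.05, a call lost without the block, under library size and when a fold above 1.2 was required.

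YAP-TEAD genes were split, with 9 of 31 higher and 9 lower (5 and 6 without the block, 13 and 6 under library size). CCN2, a secreted matrix protein, lay at 44.5, 38.7 and 37.2 CPM with DMSO and 77.2, 78.2 and 80.2 CPM with 5-Ph-IAA (0.97 ± 0.08, adjusted p = 6e-15), and ANKRD1 was at 1.18, whereas FJX1 lay at 19.6, 11.3 and 21.9 CPM with DMSO and 6.09, 7.04 and 7.58 CPM with 5-Ph-IAA (-1.32 ± 0.16) and the Hippo scaffold WWC1 at -0.60 ± 0.05. GGAATG, the TEAD motif, stood in 8.89% of promoters of genes called higher, 8.37% of genes called lower and 9.36% of all. In the ERK feedback and EGFR ligand list 7 of 25 were higher and 2 lower (4 and 1 without the block, 14 and 1 under library size). The ligand TGFA lay at 35.2, 34.4 and 35.2 CPM with DMSO and 48.7, 49.9 and 47.6 CPM with 5-Ph-IAA (0.48 ± 0.08), and the ERK-responsive factor ETV5 was at 0.47 ± 0.07. Matrix and TGF-beta genes had 10 of 48 higher and 11 lower (20.8% and 22.9%, near the 19% and 23.6% of all genes). Without the block 4 were higher and 1 lower, and under library size 18 and 4. The integrin ITGA5 was at 0.45 ± 0.08. Of 16 KLF and SP factors 5 were higher and 5 lower. SP2 lay at 48.7, 51.3 and 44.4 CPM with DMSO and 87.8, 87.2 and 72.5 CPM with 5-Ph-IAA (0.78 ± 0.07) and KLF13 at 127, 121 and 150.4 CPM with DMSO and 68.1, 65.4 and 76.0 CPM with 5-Ph-IAA (-0.92 ± 0.06).

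Clock genes form the feedback loop that times daily rhythms. Of 15 tested, 8 rose (53.3% against 19%) and 1 fell, with a median of 0.29. TEF, a PAR bZIP factor of clock output, lay at 3.92, 4.93 and 4.36 CPM with DMSO and 9.51, 8.53 and 10.1 CPM with 5-Ph-IAA (1.09 ± 0.18, adjusted p = 3e-06), and the period gene PER1 lay at 9.04, 10.7 and 8.87 CPM with DMSO and 14.6, 16.96 and 18.8 CPM with 5-Ph-IAA (0.82 ± 0.13, adjusted p = 2.2e-06). Both were higher in all 3 pairs. The core activators CLOCK and BMAL1 were at 0.39 and 0.44, and the cryptochromes CRY1 and CRY2 at 0.24 and 0.42. DBP, NR1D1 and PER3 were not called. BHLHE40, a repressor of the loop, was the 1 lower, at -0.20 ± 0.05, with overlapping groups. Without the block 3 were higher, and without replicate 1, 2 or 3, 5, 7 or 7. Leaving out 1 of the 6 libraries gave 4 to 6 higher, and requiring a fold above 1.2 gave 2.

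Of 41 lysosome and autophagy genes 6 were higher (14.6%) and 7 lower (17.1%), against 19% and 23.6% of all genes, with a median of 0.03. Without the block 1 was higher and 2 were lower, and under library size 21 and 1. MAP1LC3B, the LC3 protein of autophagosomes, was at 0.25 ± 0.06 and the lysosomal galactosidase GLA at -0.47 ± 0.06. Epithelial and mesenchymal genes were mostly uncalled or lower. Keratin KRT18 was at -0.38 ± 0.05 and vimentin (VIM) at 1361, 1359 and 1395 CPM with DMSO and 892, 865 and 988 CPM with 5-Ph-IAA (-0.59 ± 0.05, adjusted p = 7.6e-15), while the smooth muscle actin ACTA2 was at 0.52 ± 0.06. Without the block neither KRT18 (adjusted p = 0.054) nor ACTA2 (adjusted p = 0.074) was called. Of 7 tested markers of other cell types, COL3A1 was higher (1.23) and SNAP25 lower (-0.19), and neither was called without replicate 3.

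The genes that rose most, among those of at least 3 log2 CPM, stood on none of the lists but 1, EGR1. FBXW10, an F-box protein, lay at 4.07, 6.60 and 2.18 CPM with DMSO and 20.4, 21.9 and 15.2 CPM with 5-Ph-IAA (2.19 ± 0.18, adjusted p = 4.6e-10). MYPN, which encodes the sarcomere protein myopalladin, lay at 4.67, 6.25 and 4.28 CPM with DMSO and 20.4, 22.0 and 19.8 CPM with 5-Ph-IAA (2.04 ± 0.14, adjusted p = 2.4e-17). DNAH3, an axonemal dynein heavy chain, lay at 11.4, 14.3 and 4.67 CPM with DMSO and 39.1, 41.9 and 18.9 CPM with 5-Ph-IAA (1.74 ± 0.11, adjusted p = 7.8e-18). In DNAH3 both libraries numbered 3 were the lowest of their groups. HOXB13, a homeobox gene of the posterior body axis, lay at 7.61, 8.45 and 7.55 CPM with DMSO and 21.8, 21.7 and 24.2 CPM with 5-Ph-IAA (1.52 ± 0.13, adjusted p = 5.5e-14). SDCBP2-AS1, an antisense RNA, was at 1.70 ± 0.16, CFAP263, a ciliary protein, at 1.30 ± 0.13, the dynein-related DNHD1 at 1.28 ± 0.16, and KIAA0513 at 1.26 ± 0.11. LYST, a regulator of lysosome size, lay at 5.80, 6.07 and 5.06 CPM with DMSO and 12.9, 15.4 and 10.8 CPM with 5-Ph-IAA. FBXW10 has a close copy, FBXW10B, between which the counting may split reads. The strand setting of the counting is not given, so it is not known whether reads of SDCBP2-AS1 and its partner were told apart.

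By kind of gene, long noncoding RNAs were called higher about as often as all genes (19.7% against 19%) and lower in 6.76% against 23.6%. Of 873 tested, 172 rose and 59 fell, and their median was 0.22. Among 179 with LINC names 51 were higher and 4 lower, and among 102 named as divergent transcripts 23 and 4. Of 391 ZNF zinc finger genes, many of which encode repressors of repeat DNA, 93 were higher (23.8%) and 34 lower (8.7%). Among all genes of the lowest quintile of expression 3.21% were lower, and the part of expression level in these shares was not tested. Long genes were lower less often: 16.2% of those over 88.9 kb, against 27.4% of those under 8.66 kb. Promoters richer in G and C went with more calls of lower, from 18.3% below 55.6% GC to 28.4% above 73.6%.

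Replication-dependent histone genes are transcribed in S phase. Of 62 genes 17 passed the filter on low counts. Most of their mRNA lacks the poly(A) tail by which these libraries were selected. Of the 17, 12 were in the lowest quintile of expression, 7 were higher and 0 lower, and the median was 0.63. H2BC12 lay at 24.9, 19.3 and 20.9 CPM with DMSO and 34.8, 29.5 and 36.8 CPM with 5-Ph-IAA (0.63 ± 0.09, adjusted p = 3.8e-07) and the linker histone H1-2 at 9.72, 9.24 and 9.88 CPM with DMSO and 14.9, 12.4 and 15.1 CPM with 5-Ph-IAA (0.55 ± 0.13, adjusted p = 0.00048). Members that passed at low levels count only the polyadenylated share, so this does not give the level of histone mRNA.

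The 5-Ph-IAA effect was measured a second time in cells that had also received prexasertib, against prexasertib alone, with no library in common with the comparison above. In that arm 5441 of 14658 genes were called (37.1%). Fitted separately, 13858 genes were tested in both arms, 6120 were called without and 4991 with prexasertib, and 3829 in both (62.6% and 76.7%), of which 3812 had the same sign. Of the 6120, 5780 (94.4%) had the same sign in the other arm. Across genes Pearson's r of the log2 fold changes was 0.785, with genes not independent and the scaling shared within an arm.

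Most large shifts of lists were seen in that arm too. Of 93 G2/M genes 93 were lower under prexasertib with the same median of -0.83, and snoRNA hosts (median -0.59), chaperones (-0.42), ribosome biogenesis (-0.34) and splicing factors (-0.40) were lower as well. RRM2 was at -1.70 with prexasertib and -1.90 without, MXD3 at -1.90 and -1.97, and HOXB13 at 1.52 and 1.52. Histones had a median of -0.19 there with 0 higher and 1 lower, ribosomal proteins 12 of 78 lower, and p53 targets 13 of 40 lower and 4 higher. Whether the lists differ between the arms was not tested.

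The difference between the arms, tested as an interaction for each gene, passed for 96 of 14658 genes, with 1679 at an unadjusted p under 0.05. Most named genes lay near the diagonal, and 11 of the 137 passed. KIF20A, PLK1 and CCNB1 fell less with prexasertib (-1.28, -0.85 and -0.71) than without it (-1.68, -1.28 and -1.13). EGR1 and MYC were higher without prexasertib (1.30 and 0.36) and at -0.37 and -0.17 with it.

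**Figure D4:**
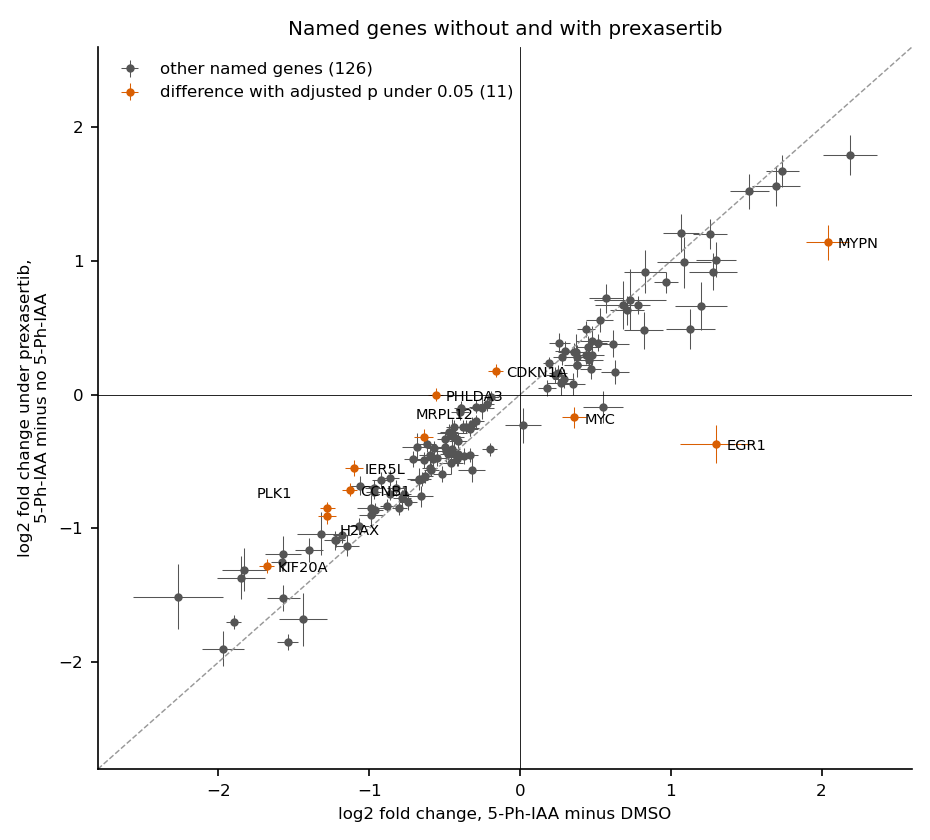
Log2 fold changes of 137 named genes with 5-Ph-IAA against DMSO (horizontal axis) and with 5-Ph-IAA and prexasertib against prexasertib alone (vertical axis), with SE bars; the dashed line marks equal change. Points in orange are the 11 genes whose difference passed an adjusted p under 0.05. Among them EGR1 lies at 1.30 and -0.37, and most grey points lie close to the line.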

How the data were processed

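RNA of 12 libraries was read as raw counts per gene, whole numbers that the authors deposited without normalization, and the comparison used 3 DMSO and 3 IAA libraries, grouped by title. Per the submitters' processing notes, featureCounts 2.0.8, limma 3.58.1 and hg38 were used. Aligner, annotation version and strand option were not given in the sources used here. Libraries were poly(A)-selected and directional, per the labels' protocols. Of 28395 gene IDs, 27745 matched RefSeq names (GRCh38.p14), and the other 650 held 0.0324% of the counts.

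Genes were kept by filterByExpr (minimum count 10, minimum total 15), which left 14658 with 99.92% of the counts. A robust quasi-likelihood model of edgeR 4.0.16 (R 4.3.3), with TMM scaling and terms for the 4 groups and the replicate number, was fitted to all 12 libraries, which share 1 estimate of the spread. P-values were adjusted by Benjamini-Hochberg over all genes tested and called under 0.05. Unless another tool is named, adjusted p-values come from this test, SE is the size of the log2 fold change over the square root of F, and CPM is on TMM-scaled library sizes. A prior count of 2 went into log2 CPM. With the block, the common biological coefficient of variation came to 5.72%.

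The replicate number was a block by the choice of the comparison. Deviations from the group means correlated in same-numbered DMSO and IAA libraries (r 0.256, 0.402 and 0.633). Pairs of different number gave 0.276 and 0.35 among libraries 1 and 2 and -0.354 to -0.503 with library 3. Library 3 thus stood apart, while numbers 1 and 2 were not clearly separated. The labels do not say whether libraries came from separate cultures, so the p-values reflect only the spread among these samples, which may be technical. Within 3 against 3 an exact permutation test cannot give a two-sided p below 0.1, and none was used. Lists are described by counts and medians beside those of all genes, with no test of the list.

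The comparison, the gene lists and the named genes were chosen with earlier results of these data known. Named were the 10 largest log2 fold changes in each direction (called, mean of at least 3 log2 CPM, groups not overlapping), the 2 genes of lowest adjusted p in the prevailing direction and 1 in the opposite direction for every list in which 3 or more were called, and TRRAP, MYBL2, FOXM1, LIN9, MYC, CHEK1, E2F1, CDKN1A, CCNB1 and PLK1. Other members are named as examples of their list, and some results of single genes are not reported here. Motifs were searched in the 250 bases before the start of 11547 tested genes in the RefSeq promoter table. The model was tested on simulated data. Alternatives were other scalings, filters and tools (DESeq2 1.42.0, limma-voom), no block, and each library or replicate left out.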

Additional observations from a re-analysis of the deposited data

Results flagged for a closer look

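For 11 named genes the 5-Ph-IAA effect differed between the arms with and without prexasertib by an interaction term in edgeR's quasi-likelihood test. The value is the log2 fold change under prexasertib minus that without it. It was 0.55 ± 0.08 (SE) for PHLDA3 (adjusted p = 1.6e-05), 0.55 for IER5L, 0.43 for PLK1, 0.42 for CCNB1, 0.40 for KIF20A, 0.38 for H2AX, 0.34 for CDKN1A and 0.32 for MRPL12 (adjusted p = 0.05 after rounding). All 8 except CDKN1A fell without prexasertib by more than with it, and CDKN1A was at -0.16 without and 0.18 with it.

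The other 3 were EGR1 at -1.67 ± 0.27, MYPN at -0.90 and MYC at -0.53. MYPN was higher in both arms, at 2.04 and 1.14, while EGR1 and MYC were above 0 without prexasertib and below 0 with it. The DMSO library numbered 3 held the lowest EGR1 level, and its part in this difference was not tested. Groups of 3 libraries are too small for a test of single outlying libraries.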

How the results depend on the processing

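Across 20 alternatives, 92 of the 136 called named genes were called in every one, and none of the 136 changed sign. LIN9, which was not called (0.02), was at -0.07 without IAA replicate 3 and at -0.03 without replicate 3, within a range of -0.07 to 0.09 over the analyses that left out a library or replicate. Leaving out 1 of the 6 libraries or 1 replicate number gave 1945 to 2524 genes called higher, 2626 to 3162 called lower, and 3958 to 5542 called under prexasertib. Without the replicate block 1414 genes were called higher and 1787 lower, 51.2% of the calls with it, and 2674 under prexasertib; all 6245 called genes kept their sign. The biological coefficient of variation was then 12.8%. Scaling by library size gave 5078 higher and 1760 lower, upper-quartile scaling 3701 and 2505 (59.6% higher), and DESeq2 2280 and 3132. Requiring a fold above 1.2 left 1090 higher, 1282 lower and 1955 under prexasertib. The cause of these shifts beyond their construction was not tested.

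The part of depth in the calls of weak genes was not tested. Reads carried no molecular identifiers, so counting error is not the whole error of a level.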
